A study of Mus musculus with 15 samples.

Results

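The 7 genes described here encode the mouse inhibitors of cyclin-dependent kinases (CDKs): Cdkn1a (p21Cip1), Cdkn1b (p27Kip1), Cdkn1c (p57Kip2), Cdkn2a (p16Ink4a and p19Arf), Cdkn2b (p15Ink4b), Cdkn2c (p18Ink4c) and Cdkn2d (p19Ink4d). They were chosen by symbol, as the members of the Cip/Kip and INK4 gene families, and are 7 of the 31298 genes in the deposited table. All 7 passed the filter on low values, which left 27994 genes to be tested. RNA sequencing was carried out on hematopoietic stem cells (HSCs) of mice of the strain hCD34-tTA x TetO-H2BGFP, in which a transactivator under human CD34 regulatory sequence drives a fusion of histone H2B and green fluorescent protein. Doxycycline stops the synthesis of the fusion protein, and each later division dilutes what is left. HSCs sorted as LSK, CD48-, Flk2- and CD150+ cells were divided by fluorescence into the bins GFP4, GFP3, GFP2 and GFP1, and the undivided HSC sort is called Total. The number of a bin is read here as rising with the label kept, since the labels do not say which end is brightest. Each of the 5 groups had 3 libraries, and all 15 libraries came from mice of this strain that received doxycycline at 1 mg/ml in the drinking water, begun at 2 to 4 months of age. In each group library I came from 5-month-old mice given doxycycline for 12 weeks, library II from 5.5-month-old mice given it for 14 weeks, and library III from 6.5-month-old mice given it for 16 weeks. No group without doxycycline is analysed here. Only cells in which the CD34-driven transactivator had been active carry the label, so low fluorescence can follow from division or from little labelling at the start. No label or file says whether a library holds cells of 1 mouse or of a pool, so the p-values cover only the variation among libraries, which may be technical.

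CDKs drive the cell cycle when bound to cyclins, and both families of inhibitors hold them back. Proteins of the INK4 family (p15, p16, p18 and p19Ink4d) bind CDK4 and CDK6 and keep them from D-type cyclins, while those of the Cip/Kip family (p21, p27 and p57) bind whole cyclin-CDK complexes, mainly those of CDK2. With the kinases blocked, pocket proteins stay bound to E2F factors and the genes of DNA replication stay off. In mouse bone marrow p57 is known to be needed for the quiescence of HSCs, and loss of p18 is known to raise their self-renewal.

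The table holds log2 values that the authors had quantile normalized. It is not known whether they are per transcript length, so levels are compared between libraries and not between genes. A difference below is a difference of log2 values, the first group minus the second, with the moderated standard error (SE) of limma and a p-value adjusted by the Benjamini-Hochberg method over all tested genes. A gene is called where that value is under 0.05.

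Between GFP1 and GFP4 the 3 called members moved in both directions. Cdkn1c fell, while Cdkn2c and Cdkn2d rose. Cdkn1a, Cdkn1b, Cdkn2a and Cdkn2b were not called. Of all genes tested, 19.5% were called in this comparison, 9.27% as higher and 10.3% as lower in GFP1. The median difference was 0.51 over the 7 members and -0.07 over all genes. The members' median is the value of Cdkn2a, a gene near the lowest value of the table, and it became -0.0216 without GFP1 library III, 0.0916 without GFP4 library I and 0.2447 without GFP1 library II. The 3 called members were also the ones whose GFP1 libraries did not overlap with their GFP4 libraries. Separation and call rest on the same GFP1 and GFP4 values, so the one adds no support to the other. The share of all genes with such a separation was not counted. Separation also occurred without a call, as for Cdkn2b between GFP1 and GFP2 (adjusted p = 0.3325 in limma). In bulk libraries, fewer cells expressing a gene and less RNA per cell cannot be told apart.

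**Figure D1:**
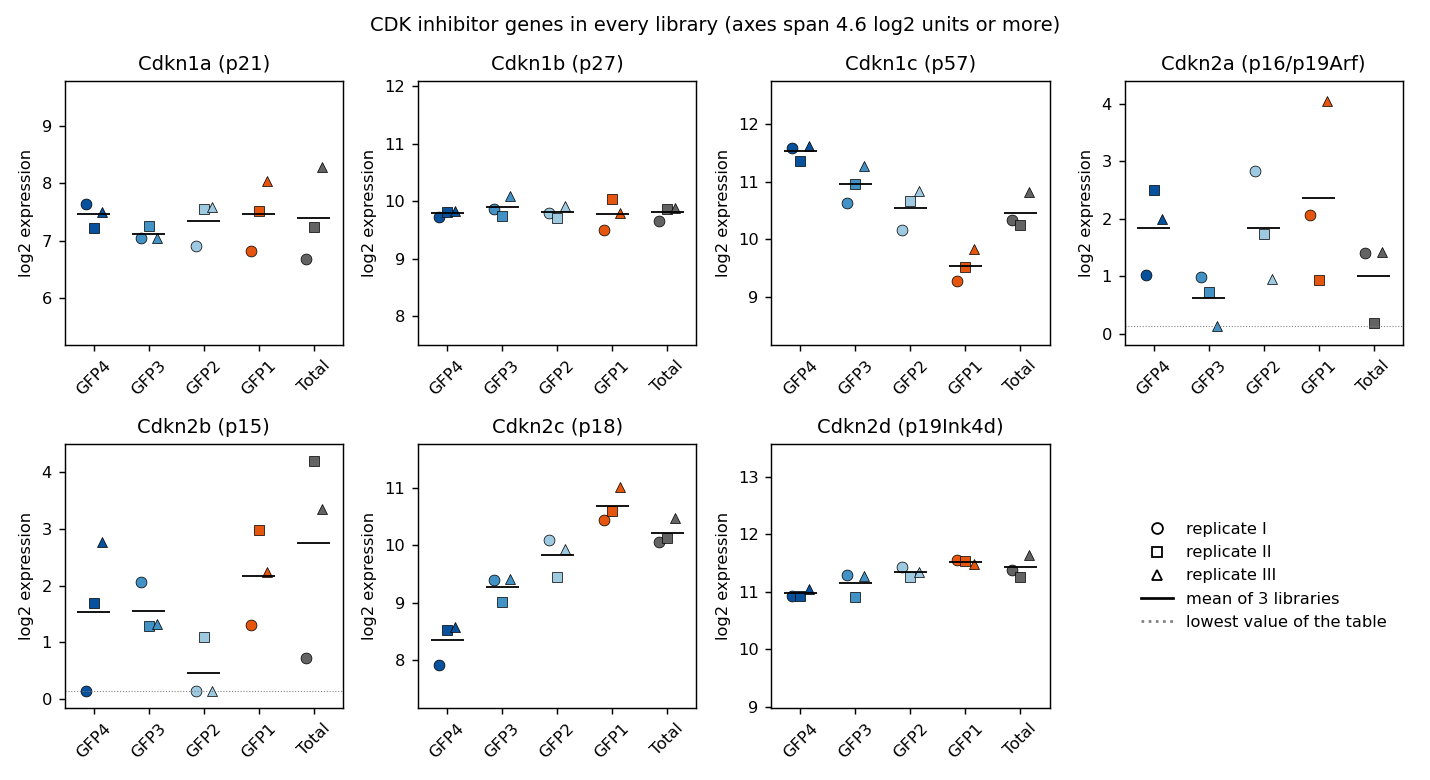
Log2 value (vertical axes) of each CDK inhibitor gene by group (horizontal axes), 1 panel per gene, with 1 point per library and a bar at the mean of 3. Cdkn1c falls over the bins to between 9.28 and 9.83 in GFP1, against 11.36 to 11.63 in GFP4, and Cdkn2c rises to between 10.43 and 11.01 in GFP1, against 7.91 to 8.58 in GFP4.

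Cdkn1c encodes p57, the Cip/Kip member transcribed mainly from the maternal allele within the imprinted cluster of distal chromosome 7 (chr7:143458339-143461050, minus strand, GRCm38). Its log2 values in libraries I, II and III were 11.59, 11.36 and 11.63 in GFP4, 10.62, 10.96 and 11.28 in GFP3, and 10.16, 10.67 and 10.83 in GFP2. They were 9.28, 9.52 and 9.83 in GFP1, and 10.33, 10.25 and 10.82 in Total. The GFP4 libraries lay above every other library, the GFP1 libraries lay below every other one, and GFP3, GFP2 and Total overlapped.

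Cdkn1c averaged 9.54 ± 0.275 in GFP1 and 11.53 ± 0.144 in GFP4 (SD, n = 3 each). The difference was -1.98 (SE 0.20, adjusted p = 2.305e-06 in limma), a level 3.96-fold lower in GFP1 on this scale. This call held in every alternative setting and without any 1 library. The fall was spread over the bins: -0.57 for GFP3 against GFP4 (adjusted p = 0.5624), -0.40 for GFP2 against GFP3 (adjusted p = 0.9184) and -1.01 for GFP1 against GFP2 (adjusted p = 0.00561). Of these steps only the last was called for Cdkn1c. A test of the last step against the first gave -0.43 (95% interval -1.05 to 0.18, adjusted p = 0.7681), so the steps were not shown to differ in size. A linear trend over the 4 bins had a slope of -0.64 a bin (SE 0.0646, adjusted p = 1.828e-06).

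GFP2 against GFP4 spans 2 steps, and its means use neither GFP1 nor Total libraries. The SE and p-value still rest on the spread shared by all 15 libraries. There Cdkn1c averaged 10.55 ± 0.353 in GFP2 and 11.53 ± 0.144 in GFP4, a difference of -0.98 (SE 0.20, adjusted p = 0.01027). The call was lost when GFP4 library I (adjusted p = 0.05292), GFP4 library III (0.05136) or GFP2 library I (0.06103) was left out, although the libraries of the groups did not overlap. Of the members, 2 were called in this comparison, Cdkn1c as lower and Cdkn2c as higher in GFP2, where 4.35% of all genes were called. At a mean of at least 10 ppm, 1599 of 10337 genes were called.

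Cdkn1b (p27), a Cip/Kip member whose protein is marked for degradation by the Skp2 ubiquitin ligase, was close to level in all groups (chr6:134920401-134925513, plus strand). Its log2 values were 9.72, 9.81 and 9.84 in GFP4, 9.86, 9.75 and 10.09 in GFP3, and 9.80, 9.71 and 9.91 in GFP2. They were 9.50, 10.04 and 9.79 in GFP1 and 9.66, 9.87 and 9.89 in Total. Every pair of groups overlapped. The difference between GFP1 and GFP4 was -0.014 (SE 0.143, adjusted p = 0.9762), and its 95% interval of -0.31 to 0.29 holds no change of the size seen for Cdkn1c.

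Cdkn1a (p21), the Cip/Kip member best known as a target of p53, showed no ordered change over the bins (chr17:29090976-29100727, plus strand). Its log2 values were 7.64, 7.22 and 7.50 in GFP4, 7.05, 7.25 and 7.05 in GFP3, and 6.90, 7.55 and 7.58 in GFP2. They were 6.82, 7.52 and 8.03 in GFP1 and 6.68, 7.23 and 8.28 in Total. The spread was 0.611 in GFP1 and 0.213 in GFP4 (SD), and the GFP1 libraries lay on both sides of the GFP4 ones. The difference of -0.0015 (SE 0.354, adjusted p = 1 in limma) had a 95% interval of -0.74 to 0.74.

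Cdkn2c encodes p18, an INK4 protein that in mice is also needed for the cell cycle arrest of plasma cells (chr4:109660876-109667189, minus strand). Cdkn2d encodes p19Ink4d, the other INK4 member called here (chr9:21288410-21291407, minus strand). Since the members that rose belong to 1 family, the start regions of both genes are shown, from 250 bases before to 50 bases after each annotated start (RefSeq, GRCm38.p6, 5′ to 3′ on the minus strand). The windows are chr4:109666707-109667006 and chr4:109665323-109665622 for the starts of Cdkn2c and chr9:21291160-21291459 for Cdkn2d. Capitals mark matches to the GC box GGGCGG on either strand.
Cdkn2c, upstream start: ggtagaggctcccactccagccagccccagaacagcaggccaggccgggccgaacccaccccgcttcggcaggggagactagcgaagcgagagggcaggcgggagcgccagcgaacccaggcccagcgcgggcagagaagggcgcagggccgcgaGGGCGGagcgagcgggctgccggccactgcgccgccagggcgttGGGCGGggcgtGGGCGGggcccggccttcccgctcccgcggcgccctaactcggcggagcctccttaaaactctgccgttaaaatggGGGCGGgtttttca
Cdkn2c, downstream start: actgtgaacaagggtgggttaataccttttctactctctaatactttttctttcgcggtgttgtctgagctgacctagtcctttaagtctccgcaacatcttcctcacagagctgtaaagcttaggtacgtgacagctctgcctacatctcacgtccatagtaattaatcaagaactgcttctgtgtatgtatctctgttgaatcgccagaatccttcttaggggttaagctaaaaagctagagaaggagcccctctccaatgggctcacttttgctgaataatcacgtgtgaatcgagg
Cdkn2d: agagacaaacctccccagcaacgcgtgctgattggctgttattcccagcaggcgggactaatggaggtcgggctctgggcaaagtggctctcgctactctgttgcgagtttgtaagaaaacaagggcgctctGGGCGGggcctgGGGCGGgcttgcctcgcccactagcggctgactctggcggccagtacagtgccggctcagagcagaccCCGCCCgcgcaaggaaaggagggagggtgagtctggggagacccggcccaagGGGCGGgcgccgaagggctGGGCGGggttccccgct
The upstream start of Cdkn2c had 4 GC boxes and a GC content of 73.3%, its downstream start had none and 44.0%, and Cdkn2d had 5 and 66.3%. A GC box was found in 35.7% of the 32851 mouse promoter windows of this length. None of these windows held an E2F motif (TTTCCCGC, TTTCGCGC, TTTGCCGC or TTTGGCGC, found in 2.26% of windows) or a CHR motif (TTTGAA, found in 17.9%) on either strand. Across the 9 windows of the 6 members with an entry, 1 of Cdkn2a held an E2F motif and that of Cdkn2b held a CHR motif. GC boxes also occurred in members that were not called. The windows of Cdkn1a held 0 and 2, that of Cdkn1b 1, those of Cdkn2a 1 and 3, and that of Cdkn2b 1. The median GC content of all mouse windows was 52.7%. A match describes the letters of a window and not binding to it.

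The log2 values of Cdkn2c were 7.91, 8.53 and 8.58 in GFP4, 9.40, 9.01 and 9.41 in GFP3, and 10.09, 9.44 and 9.93 in GFP2. They were 10.43, 10.59 and 11.01 in GFP1, and 10.05, 10.13 and 10.47 in Total. Each bin lay above the bin before it with no overlap. Total overlapped GFP2 and GFP1.

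Cdkn2c averaged 10.68 ± 0.300 in GFP1 and 8.34 ± 0.371 in GFP4 (SD, n = 3 each), a difference of 2.34 (SE 0.21, adjusted p = 1.611e-07 in limma) and a level 5.06-fold higher in GFP1. GFP2 against GFP4 gave 1.48 (adjusted p = 0.0003795). Of the single steps, GFP3 against GFP4 gave 0.93 (adjusted p = 0.1263), GFP2 against GFP3 gave 0.55 (adjusted p = 0.7702) and GFP1 against GFP2 gave 0.86 (adjusted p = 0.01501). The last of these was called, but not without GFP2 library II (adjusted p = 0.09683) or GFP1 library III (0.09735). The first was not called, but was without GFP3 library II (adjusted p = 0.04875). The last step differed from the first by -0.07 (95% interval -0.69 to 0.55, adjusted p = 0.9855), and the slope over the bins was 0.76 a bin (SE 0.0661, adjusted p = 1.164e-07).

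Cdkn2d moved less. Its log2 values were 10.93, 10.93 and 11.05 in GFP4, 11.28, 10.91 and 11.27 in GFP3, and 11.43, 11.25 and 11.34 in GFP2. They were 11.55, 11.54 and 11.48 in GFP1 and 11.38, 11.25 and 11.63 in Total. GFP1 lay above GFP2, and GFP2 above GFP4, while GFP3 overlapped both of its neighbours.

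Cdkn2d averaged 11.52 ± 0.038 in GFP1 and 10.97 ± 0.0718 in GFP4, a difference of 0.55 (SE 0.12, adjusted p = 0.00141 in limma) and a level 1.47-fold higher in GFP1. The slope was 0.18 a bin (SE 0.0364, adjusted p = 0.0008449). No single step was called (adjusted p = 0.9887 for GFP3 against GFP4, 0.971 for GFP2 against GFP3 and 0.4574 for GFP1 against GFP2). GFP2 against GFP4 gave 0.37 (adjusted p = 0.08313), which passed the threshold without Total library III (adjusted p = 0.0348).

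Cdkn2b and Cdkn2a lie side by side on chromosome 4, with 11645 bases between them, and both were near the lowest value of the table, 0.14. Cdkn2b (p15; chr4:89306299-89311039, minus strand), known as a target of TGF-beta signalling, had log2 values of 0.14, 1.69 and 2.76 in GFP4, 2.06, 1.28 and 1.32 in GFP3, and 0.14, 1.10 and 0.14 in GFP2. They were 1.31, 2.97 and 2.24 in GFP1 and 0.73, 4.20 and 3.35 in Total. The GFP1 and GFP4 libraries overlapped, with a difference of 0.64 (SE 0.89, 95% interval -1.22 to 2.51, adjusted p = 0.7434).

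Cdkn2a gives rise, from separate first exons, to p16Ink4a and to p19Arf, which stabilizes p53 (chr4:89274471-89294653, minus strand). The table has 1 value for the gene, so the proteins cannot be told apart, and their annotated transcripts share 66.7% and 63.4% of their sequence words of 31 bases. Its log2 values were 1.01, 2.50 and 2.00 in GFP4, 0.98, 0.72 and 0.14 in GFP3, and 2.82, 1.74 and 0.96 in GFP2. They were 2.07, 0.93 and 4.05 in GFP1 and 1.40, 0.19 and 1.42 in Total. The GFP1 value of 4.05 stood above all others, and the difference of 0.51 (SE 0.81, 95% interval -1.18 to 2.21, adjusted p = 0.7805) turned to -0.33 without that library. At values this low the intervals reach past a log2 difference of 1 on both sides for Cdkn2a and Cdkn2b, so smaller changes were not detectable.

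**Figure D2:**
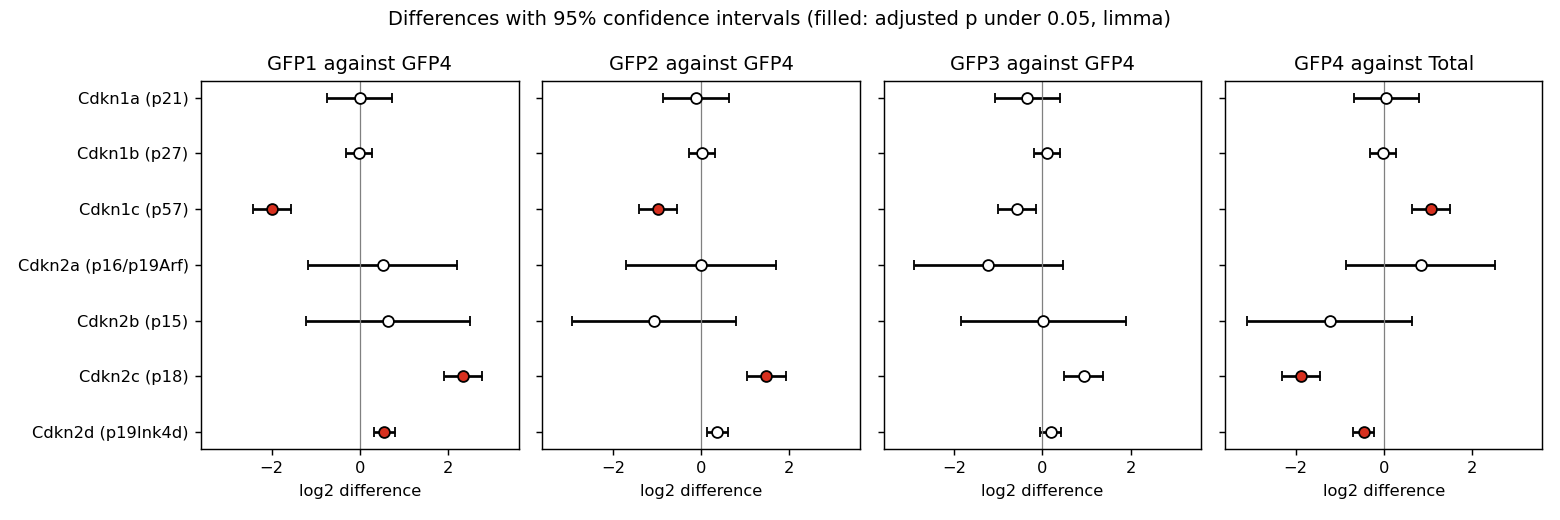
Log2 difference (horizontal axes) of each member (rows) for GFP1, GFP2 and GFP3 against GFP4 and for GFP4 against Total, with its 95% interval, and filled symbols for those called at an adjusted p under 0.05. Only Cdkn1c, Cdkn2c and Cdkn2d have filled symbols, and the intervals of Cdkn2a and Cdkn2b for GFP1 against GFP4 reach from below -1 to above 2.

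Counted over comparisons, the trend over the bins called the same members as GFP1 against GFP4 (Cdkn1c lower, Cdkn2c and Cdkn2d higher), where 20.1% of all genes were called. GFP1 against GFP2 called 2 members, Cdkn1c and Cdkn2c, where 7.17% of all genes were called. No member was called for GFP3 against GFP4 in limma (2 at an unadjusted p under 0.05, Cdkn1c and Cdkn2c), where 0.0572% of all genes were called. None was called for GFP2 against GFP3 (1 at an unadjusted p under 0.05), where 0% of all genes were, nor for the last step against the first (0 at an unadjusted p under 0.05), where 0.686% were. These comparisons share libraries, so they are not independent of each other.

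Against the undivided HSCs the same 3 genes were called in GFP4. For GFP4 against Total, Cdkn1c was higher by 1.06 (adjusted p = 0.002597), Cdkn2c lower by a difference of -1.87 (adjusted p = 1.218e-05) and Cdkn2d lower by a difference of -0.45 (adjusted p = 0.01447). These were 3 called members where 10% of all genes were called, and 3173 of 10337 at a mean of at least 10 ppm. The Cdkn2d call was lost without GFP4 library I (adjusted p = 0.06001), GFP4 library II (0.05517) or Total library III (0.0627), or with the compared groups fitted alone (0.06634). For GFP3 against Total, 2.14% of all genes were called, and 889 of 10337 at a mean of at least 10 ppm. Cdkn2c was called there as lower, by a difference of -0.94 (adjusted p = 0.02285). That call was lost without GFP3 library II (0.1473), GFP3 library III (0.05703) or Total library III (0.09416), and in a fit of the compared groups alone (0.05073). Cdkn1c in GFP3 differed from Total by 0.49 (adjusted p = 0.2883).

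For GFP2 against Total no member was called in limma (1 at an unadjusted p under 0.05), where 0.329% of all genes were called. Cdkn1c differed there by 0.09 (adjusted p = 0.9676) and Cdkn2c by -0.39 (adjusted p = 0.7981). For GFP1 against Total, 1.73% of all genes were called, and 624 of 10337 at a mean of at least 10 ppm. Cdkn1c was the 1 member called, lower by a difference of -0.92 (adjusted p = 0.02936). That call was lost without GFP1 library I (0.1302), GFP1 library II (0.09037), Total library I (0.05932) or Total library III (0.1044), and with the compared groups fitted alone (0.08355). With the library number fitted as a block over all 15 libraries, Cdkn1c stayed called (adjusted p = 0.0006279 in limma). That block was common to all 5 groups, so it is not a paired test of GFP1 and Total alone. Cdkn2c differed by 0.47 (adjusted p = 0.3792) and Cdkn2d by 0.10 (adjusted p = 0.8424) between GFP1 and Total. Total is the unsplit sort and is not a set of unlabelled controls.

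Marker lists of several cell types moved with the comparison of GFP1 and GFP4. Immunoglobulin genes made up 0.00738 to 0.0826% of all linear values in GFP4, GFP3 and GFP2, 5.27 to 5.65% in GFP1 and 4.54 to 6.01% in Total. Of 10 plasma cell markers, 10 were higher in GFP1 than in GFP4 and none was at the lowest value in every library of any group. Their linear values summed to 264.9 to 568 ppm of a library's total in GFP4, 247.8 to 447.8 ppm in GFP3, 225.1 to 254.6 ppm in GFP2, 19480 to 20490 ppm in GFP1 and 17850 to 21290 ppm in Total. Megakaryocyte markers were higher in GFP1 for 8 of 10 genes and lower for 1 (median 2.45), and B cell markers higher for 7 of 10 (median 1.52). Of all genes tested, 19.5% were called in this comparison, and 4953 of 10337 at a mean of at least 10 ppm. The next lists held fewer called genes. Erythroid markers were higher for 4 of 10, and T and NK cell markers higher for 3 of 10 and lower for 1. Mast cell and basophil markers were higher for 2 of 10, macrophage and monocyte markers for 1 of 10 and neutrophil markers for 0 of 10. The summed mast cell and basophil markers were lower, at 1176 to 1219 ppm in GFP1 against 1462 to 2017 ppm in GFP4. The median difference of that list was 1.54 all the same, with 0 genes called as lower, and the list shares a gene with the HSC markers. The megakaryocyte markers summed to 1785 to 2563 ppm in GFP1 and 1547 to 1920 ppm in GFP4, and the B cell markers to 216.7 to 357.5 ppm in GFP1 and 83.54 to 112.5 ppm in GFP4. All 12 HSC markers had log2 values of at least 7.465 in every library, but 8 of 12 were lower and 0 higher in GFP1 than in GFP4 (median -1.02), with sums of 3407 to 3506 ppm in GFP1 and 5715 to 6706 ppm in GFP4. HSC markers thus fell in the same comparison as Cdkn1c.

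Between GFP2 and GFP4, where the summed plasma cell markers were no higher in GFP2, 1 of 10 markers was called as higher. Other lists did move there, where 4.35% of all genes were called, and 1599 of 10337 at a mean of at least 10 ppm. Megakaryocyte markers were higher in GFP2 for 4 of 10 genes and lower for 1 (median 0.87). Erythroid markers were higher for 2 of 10, and HSC markers lower for 4 of 12. The differences of GFP2 and GFP4 were -0.98 for Cdkn1c, 1.48 for Cdkn2c and 0.37 for Cdkn2d. They cannot change when the GFP1 and Total libraries are left out, since their means use neither group. Only the SE and p-value can move, and the adjusted p in that limma fit was 0.0163, 0.001216 and 0.07008 in that order. After quantile normalization without immunoglobulin genes, GFP1 against GFP4 gave -1.94 for Cdkn1c (adjusted p = 2.236e-06), 2.39 for Cdkn2c (adjusted p = 1.13e-07) and 0.57 for Cdkn2d (adjusted p = 0.001036). The part that RNA of plasma cells or of the other marked cell types has in the members' values was not tested.

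**Figure D3:**
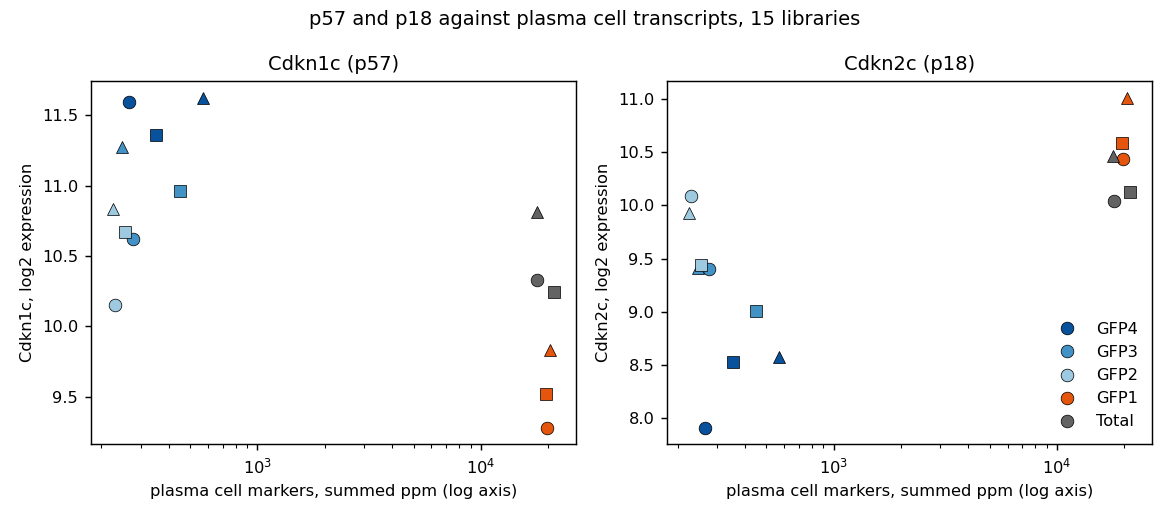
Log2 values of Cdkn1c and Cdkn2c (vertical axes) against the summed level of 10 plasma cell markers in ppm (horizontal axes, log scale), 1 point per library coloured by group and shaped by replicate number (circle I, square II, triangle III). GFP1 and Total lie at 17850 ppm or more and the other bins at 568 ppm or less. Among those other bins both genes were called for GFP2 against GFP4, but not for GFP3 against GFP4 or GFP2 against GFP3. The part of plasma cell RNA in these values was not tested.

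The replicate number, which stands for age and length of doxycycline together, moved with some members. Library III had the highest Cdkn1c value in 5 of 5 groups and the highest Cdkn2c value in 4 of 5. Its mean deviation from the group mean was 0.268 for Cdkn1c and 0.215 for Cdkn2c, against -0.212 and -0.089 for library I. Library II deviated by -0.0564 and -0.126, so Cdkn2c did not rise evenly with the number. For Cdkn1a library III deviated by 0.334 and library I by -0.336, and library I was lowest in 4 of 5 groups. Age, weeks of doxycycline and any difference between preparations cannot be told apart here, and no test was made.

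**Figure D4:**
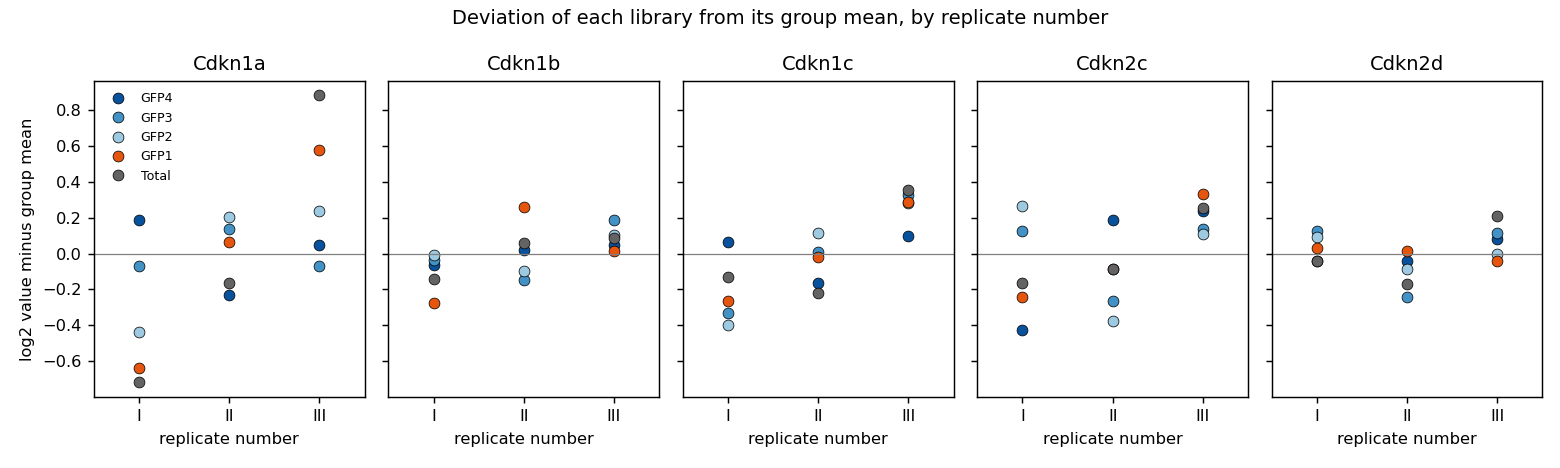
Deviation of each library from its group mean (vertical axes, log2) by replicate number I, II and III (horizontal axes), with 1 point per group, for 5 of the members (Cdkn2a and Cdkn2b, near the lowest value, are left out). Library III is the highest in 5 of 5 groups for Cdkn1c, 4 of 5 for Cdkn2c and Cdkn1b and 3 of 5 for Cdkn1a.

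The kinases and cyclins that the inhibitors bind rose in GFP1 in most cases. Of 13 such genes, 9 were higher and 1 lower in GFP1 than in GFP4, with a median of 1.48. Cdk6, the partner of D-type cyclins and a direct target of p18, rose by 2.31 (SE 0.0963, adjusted p = 1.253e-11), and its values were 13.99, 13.93 and 13.77 in GFP1 against 11.67, 11.52 and 11.56 in GFP4. Cdk1, the mitotic kinase, rose by 2.15 (adjusted p = 2.363e-06) and Ccne2, a cyclin of CDK2, rose by 1.79 (adjusted p = 4.149e-07). Ccnd2, a D-type cyclin, fell by 0.70 (adjusted p = 8.041e-06). The differences were -0.22 for Ccnd1, 0.12 for Ccnd3 and -0.07 for Ccna1, none of them called. Between GFP2 and GFP4, 7 of the 13 were higher and 0 lower, and between GFP4 and Total 0 were higher and 9 lower.

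Among 13 pocket proteins and E2F factors, 8 were higher and 2 lower in GFP1 than in GFP4, with a median of 0.83. E2f8 and E2f1, a repressor and an activator of replication genes, rose by 2.48 (adjusted p = 2.475e-08) and 1.87 (adjusted p = 2.587e-07), and Tfdp1, the dimerization partner of E2f1, rose by 0.97 (adjusted p = 8.88e-08). Rbl2 (p130), the pocket protein of resting cells, fell by 0.82 (adjusted p = 6.137e-05), and E2f5, one of its partners, fell by 0.81 (adjusted p = 0.0005385). Rb1 differed by -0.78 and was not called (adjusted p = 0.2004). Of the S phase list 21 of 22 genes were higher in GFP1, and of the G2 and M phase list 22 of 22.

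Of 12 genes for ubiquitin ligases of the inhibitors, 4 were higher and 0 lower in GFP1 than in GFP4, with a median of 0.28. Skp2, which recognizes p27, rose by 0.97 (adjusted p = 6.788e-06), and its cofactor Cks1b rose by 1.93 (adjusted p = 1.284e-06), while the Cdkn1b transcript itself was not called. Cks2, a relative of Cks1b, rose by 1.99 (adjusted p = 6.39e-06). The scaffolds Cul1, Cul4a and Cul4b were not called. In the p53 pathway, which holds regulators of p53 and targets that it shares with Cdkn1a, 5 of 16 genes were higher and 3 lower, with a median of 0.22. Gtse1, a mitotic gene that restrains p53, rose by 2.26 (adjusted p = 2.438e-06), and the checkpoint kinase gene Chek1 rose by 1.45 (adjusted p = 3.992e-06). The p53 targets went both ways: Btg2 rose by 1.36 (adjusted p = 7.265e-06) and Pmaip1 by 1.63 (adjusted p = 0.04166), while Sesn1, Sesn2 and Ccng1 fell by 0.95 (adjusted p = 1.938e-07), 0.49 (adjusted p = 0.02707) and 0.41 (adjusted p = 0.004086). Trp53 differed by 0.23 and Mdm2 by -0.22, and neither was called.

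Of 26 genes known to regulate the inhibitor genes, 4 were higher and 9 lower in GFP1 than in GFP4, with a median of -0.31. The Polycomb genes split. Ezh2, the methyltransferase, rose by 1.37 (adjusted p = 8.926e-07) and Suz12, its partner, rose by 0.49 (adjusted p = 0.007909). Cbx7 and Bmi1, of the other Polycomb complex and known as repressors of Cdkn2a, fell by 1.30 (adjusted p = 1.059e-07) and 0.96 (adjusted p = 2.603e-06). Myc, which acts on several of the inhibitor genes, rose by 0.39 (adjusted p = 0.00102). Gata2, Ets1 and Hes1 were not called.

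**Figure D5:**
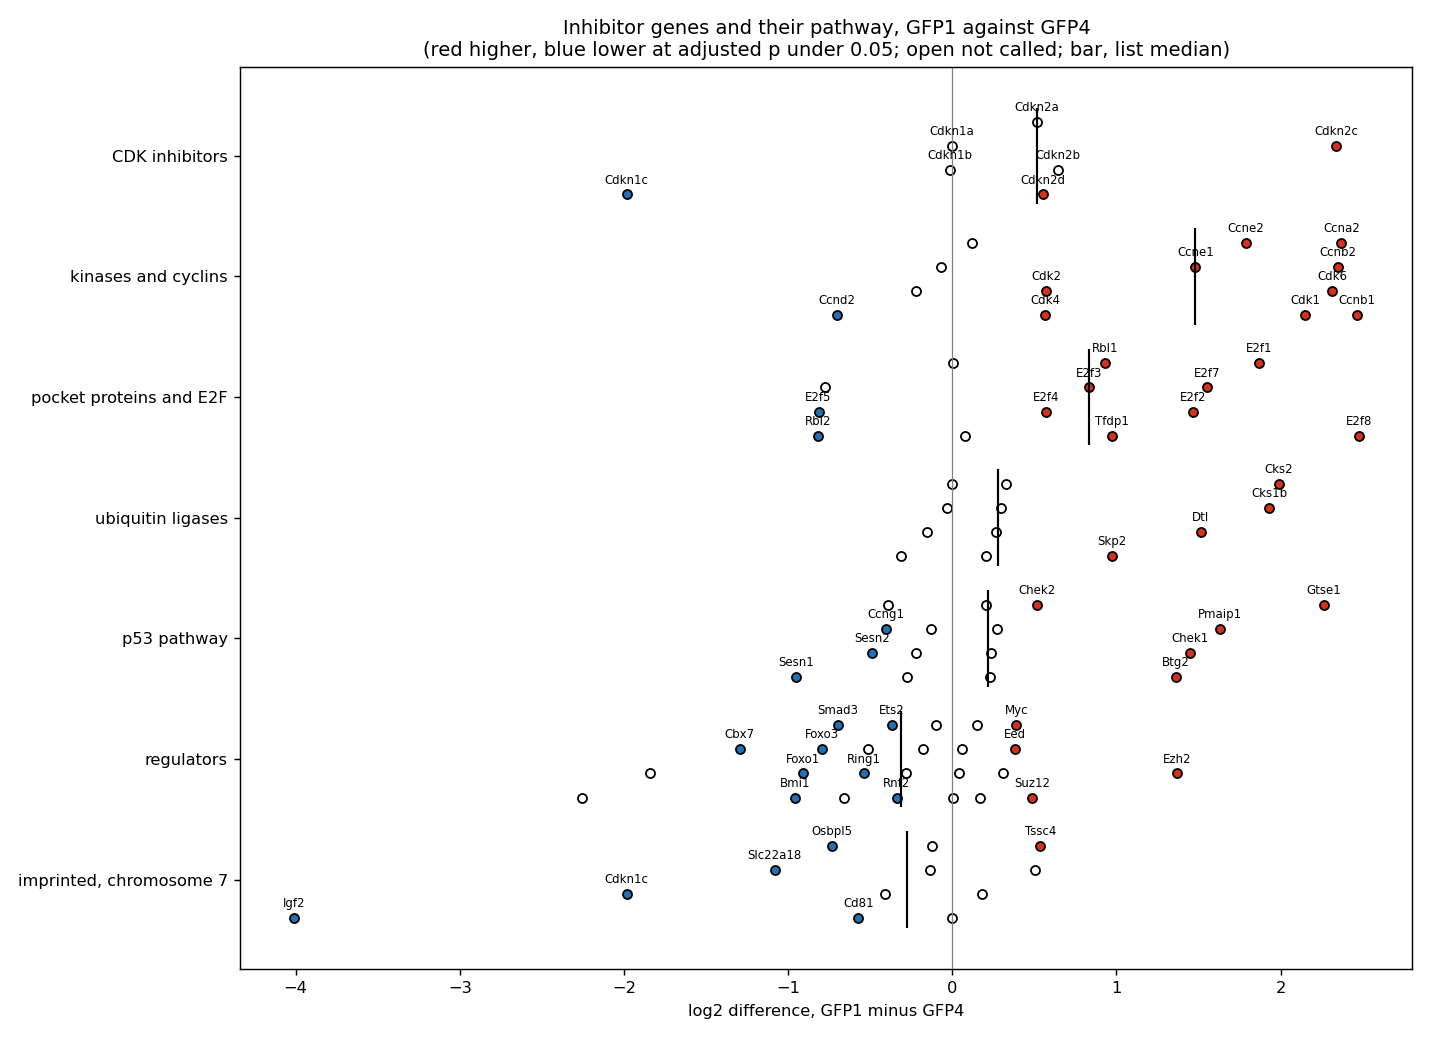
Log2 difference between GFP1 and GFP4 (horizontal axis) for the genes of 7 lists (rows), with red points called as higher, blue as lower and open points not called, and a bar at the median of each list's tested genes. Cdkn1c is the one inhibitor called as lower, and 9 of 13 kinases and cyclins are red.

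Cdkn1c lies in an imprinted region, and 12 of 14 listed genes of distal chromosome 7 were tested. Of these, 1 was higher and 5 lower in GFP1 than in GFP4, Cdkn1c among them. Igf2, a growth factor gene, had log2 values of 2.07, 4.73 and 4.46 in GFP1 against 7.55, 7.80 and 7.94 in GFP4, and fell by 4.01 (SE 0.551, adjusted p = 2.791e-05). Slc22a18, a transporter gene near Cdkn1c, fell by 1.08 (adjusted p = 1.086e-05), and its values of 8.29, 8.16 and 8.30 in GFP1 lay below those of 9.28, 9.39 and 9.33 in GFP4. Tssc4 rose by 0.54 (adjusted p = 0.002133). Phlda2 (-0.12, adjusted p = 0.7352) and Nap1l4 (-0.0033, adjusted p = 0.9904), which lie beyond Slc22a18, were not called. The genes of the region thus did not all move one way.

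Genes whose pattern was most like a member's were ranked by Pearson's r of log2 values over the 15 libraries, among those whose mean linear value reached 10 ppm of the library sum. The libraries share groups, so r is a description. For Cdkn1c the highest were Mtfr1l (0.986), Smtnl1 (0.984) and Pdzk1ip1 (0.981), and the lowest were Uba2 (-0.977), Rqcd1 (-0.972) and Cenpo (-0.972). For Cdkn2c Mrpl18 (0.991) and Fgf3 (0.986) were the highest, and the lowest were Foxred2 (-0.961), Spata13 (-0.957) and St8sia4 (-0.956). Cdkn2d was closest to H2afv (0.97), Ssr2 (0.968) and Nxt1 (0.964). For the members that were not called, the best r was 0.879 for Cdkn1a (Leng1), 0.858 for Cdkn1b (Taf1d), 0.856 for Cdkn2a (Mtmr4) and 0.779 for Cdkn2b (Ighv1-82, an immunoglobulin segment). Since r includes differences among groups, these values cannot be set against those of the called members.

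Some reads may be shared with other genes. Of the sequence words of 31 bases in the annotated transcripts of Cdkn1c, 27.2% also occur in 1 other gene, and of those of Cdkn1a 9.78% occur elsewhere. For Cdkn2a, Cdkn2b, Cdkn2c and Cdkn2d the share was 0, and no member shared such words with another. The annotation places the antisense transcript Gm44732 over Cdkn1c and AC167363.2 opposite Cdkn1a, and since the library kit does not mark strand, reads of such partners cannot be told apart from those of the gene.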

How the data were processed

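RNA of sorted HSCs was amplified with SMART-Seq v4 and made into Nextera XT libraries, per the labels' protocols. The submitters' processing notes name kallisto 0.43.0 and GRCm38. The authors deposited log2 values per gene symbol; from the values, the libraries were quantile normalized (range 0.1375 to 19.12). No source used here gives the unit before normalization or the read depth, so there are no counting intervals. Quantile normalization removes differences in total RNA. The design foresaw a count test for counts; the file holds log2 values, so limma was used.

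For filtering and for shares, values were put on a linear scale (2 to the power of the value, minus 1). A gene was tested if 3 or more libraries had a linear value of 1 or above, with limma 3.58.1 in R 4.3.3: 1 mean per group over 15 libraries, intensity trend, robust moderation and Benjamini-Hochberg adjustment at 0.05. The fit was tested on simulated data. The members and gene lists were chosen with earlier results of these data known. The named genes are the 7 members, up to 3 genes of each list each way by smallest p in GFP1 against GFP4, up to 3 with the largest p among those not called, and the 3 most like each member. Genes outside this rule (Trp53, Mdm2, Pmaip1 and Phlda2) were added for their role, with their values seen. Some genes that the rule takes are not reported here or drawn, though counts and medians of lists include them. Coordinates come from GENCODE M21 and promoters from RefSeq. Same-numbered libraries of GFP1 and Total deviated together to a small degree (r 0.127 to 0.244). A block by number over all 15 libraries kept that comparison's call of Cdkn1c (adjusted p = 0.0006279 in limma), but it did not pair GFP1 and Total alone. Alternatives were other filters, array weights, quantile normalization without immunoglobulin genes, a replicate block, a pseudocount of 0.1, the compared groups alone, GFP2 to GFP4 alone and each library left out.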

Additional observations from a re-analysis of the deposited data

How the results depend on the processing

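The calls of Cdkn1c, Cdkn2c and Cdkn2d for GFP1 against GFP4 and for the trend held in every alternative run and without any 1 library, with 3 members called each time. Outside the pair of GFP1 and Total, same-numbered libraries did not deviate together throughout (r -0.266 to 0.276), and in 0 of 8 pairs of groups did every library correlate best with its own number. With number as a replicate block the count of called members became 1 for GFP3 against GFP4 (0 without it; Cdkn2c, adjusted p = 0.03943) and 2 for GFP3 against Total (1 without it; Cdkn1c joined, adjusted p = 0.04982), and Cdkn2d passed for GFP2 against GFP4 (adjusted p = 0.04134); no other call of a member changed under the block. For GFP2 against GFP4, Cdkn2d also passed when genes under a mean of 10 ppm were dropped (adjusted p = 0.0356) or only those libraries were fitted (0.04515). With the compared groups alone the count became 0 for GFP3 against Total and 0 for GFP1 against Total. The Cdkn2d call for GFP4 against Total was also lost in that setting (adjusted p = 0.06634). Leaving out 1 library at a time, counts ran from 1 to 3 for GFP2 against GFP4, 0 to 1 for GFP3 against GFP4 and 1 to 2 for GFP1 against GFP2. Against Total they ran from 2 to 3 for GFP4 and 0 to 1 for GFP3 and for GFP1. The direction turned only in differences that were not called. For GFP1 against GFP4, Cdkn1a gave 0.1327 after quantile normalization without immunoglobulin genes, 0.0956 with array weights and -0.29 to 0.32 without 1 library, and Cdkn1b gave 0.0302, 0.0287 and -0.14 to 0.12 in the same order. Without 1 library Cdkn2a ran from -0.33 to 1.22, Cdkn2b from -0.0524 to 1.26 and Cdkn1c for GFP2 against Total from -0.0518 to 0.29. The last step against the first for Cdkn2c gave 0.0975 with array weights and -0.26 to 0.14 without 1 library. The causes were not tested. Cdkn1a, Cdkn2a and Cdkn2b did not pass the filter at a mean of 10 ppm. Read depth is unknown, which limits what can be said of Cdkn2a and Cdkn2b.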

Other observations

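Among the regulators of the inhibitor genes, Smad4, which carries TGF-beta signals and whose values were seen before it was chosen, had log2 values of 9.10, 9.22 and 12.09 in GFP1 libraries I, II and III, against 12.38, 12.37 and 12.43 in GFP4. In GFP2 they were 9.21, 10.91 and 12.20, and in Total 8.75, 9.15 and 12.05. Library III stood well above I and II in GFP1, GFP2 and Total, while the GFP4 libraries lay close together. Values of GFP3 are not given here. The difference of GFP1 and GFP4 was not called (-2.26, SE 1.05, adjusted p = 0.1949 in limma).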
